A study of Mus musculus with 13 samples.

Results

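The CD3 complex and the proximal TCR kinases were followed in M2 CD4SP thymocytes as 10 named genes out of the 35906 genes to which the transcripts of the files were summed. The genes were taken as a named list and not by a threshold on their levels. They are the CD3 chains Cd3d, Cd3e and Cd3g, the zeta chain gene Cd247, the kinases Lck, Fyn and Zap70, the adaptors Lat and Lcp2, and Themis. All 10 passed the filter on low counts in every fit, so each was among the 13152 genes tested in unstimulated cells and among the 14241 tested over all libraries. On GRCm38 the 3 CD3 chain genes lie side by side on chromosome 9, with Cd3g at chr9:44969572-44980431 (minus strand), Cd3d at chr9:44981786-44987339 (plus) and Cd3e at chr9:44998740-45009627 (minus). Cd247 is at chr1:165788681-165877277 (plus), Zap70 at chr1:36761798-36782818 (plus), Lck at chr4:129548344-129573641 (minus) and Lat at chr7:126363824-126369570 (minus). Fyn is at chr10:39368855-39565381, Themis at chr10:28668360-28883818 and Lcp2 at chr11:34046920-34092295, all on the plus strand. Genes on the opposite strand overlap Cd247 (Pou2f1), Fyn, Zap70, Lcp2 and Themis, and as no strand option is named for the quantification, their reads may not be told apart where exons overlap.

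The TCR has no enzyme of its own. When it binds peptide–MHC, Lck and Fyn phosphorylate the ITAM motifs of the CD3 and zeta chains, Zap70 docks on these motifs and is activated by Lck, and Zap70 then phosphorylates the adaptors LAT and SLP-76 (the product of Lcp2), on which the downstream enzymes assemble. Themis is a T cell protein of developing thymocytes that binds GRB2 and the phosphatase SHP-1. Developing thymocytes are selected by the strength of the signal that this machinery delivers.

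The cells were sorted as CD69-MHCI+ (M2) CD4SP thymocytes of C57BL/6J Lm54 TCR transgenic mice on a Rag1-/- background, so that all of them carried the same rearranged receptor. CtslΔTEC mice lack the protease cathepsin L in thymic epithelial cells through a Foxn1-driven Cre, and the controls are labelled WT with Ctsl fl/fl alleles, where the study's text writes Ctsl+/+, a difference that was not settled here. Each library came from 1 mouse. There were 5 CtslΔTEC and 4 WT unstimulated libraries, and 2 CtslΔTEC and 2 WT libraries from cells stimulated for 4 h with plate-bound LLO:I-Ab monomer at 1 µg/ml and soluble anti-CD28 at 250 ng/ml, where LLO:I-Ab is the listeriolysin peptide–MHC ligand of the receptor. The labels give no age. Because Cre acts in the epithelium, the level of Ctsl in thymocytes checks no genotype label.

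The libraries held 8085463 to 39127833 estimated counts, the shallowest being that of stimulated WT mouse 5. Cd4 stood at 327.4 to 604.2 TPM (a relative level per transcript length) in all libraries. Cd69 was between 41.5 and 61.8 TPM in unstimulated cells and between 2500 and 3167 TPM after stimulation. The 5 B cell markers summed to at most 1.79 TPM. Of the 6 thymic epithelial markers 4 (Foxn1, Psmb11, Krt5 and Krt8) were below 1 TPM in every library, and the list, with Epcam and Ctsl, summed to 7.41 to 10.5 TPM in unstimulated WT and 12.8 to 19.1 TPM in unstimulated CtslΔTEC libraries. The 5 NK and innate markers summed to 10.6 to 14.7 TPM in unstimulated WT and 3.32 to 5.18 TPM in unstimulated CtslΔTEC libraries, and the 5 erythroid markers reached 771.3 TPM in 1 library. The 10 markers of the earlier CD4+CD8+ (DP) stage summed to 352.1 to 447.2 TPM in unstimulated CtslΔTEC against 167.5 to 202.4 TPM in WT cells, with Cd8a at 12.6 to 17.9 against 2.15 to 2.42 TPM. The Y-linked gene Ddx3y was high in all 5 unstimulated CtslΔTEC libraries (45.6 to 70.6 TPM) but in only 1 of the 4 unstimulated WT libraries (56.9 TPM in mouse 3, with a WT median of 0.116 TPM). Each stimulated group had 1 library with a high and 1 with a low Ddx3y level (63.1 and 0.448 TPM in WT, 78.7 and 0.0383 TPM in CtslΔTEC). What part these differences have in the results below was not tested beyond the values given beside them.

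In unstimulated cells the highest mean level of the group was that of Cd3g, with a mean of 1078 TPM ± 40.8 (SD, n = 4) in WT and 1135 ± 86.5 (SD, n = 5) in CtslΔTEC mice. Lck, Lat and Cd3e followed, then Cd247, Cd3d and Fyn, and the lowest were Zap70, Lcp2 and Themis. In WT cells the ranges of neighbouring genes overlapped from Lck down to Cd3d, so that part of the order is not resolved. In CtslΔTEC cells the ranges of Cd3g and Lck overlapped too, and in mouse 1 Lck (1153 TPM) was above Cd3g (1066 TPM). Themis was lowest in both genotypes, at 88.5 TPM ± 13.7 (SD, n = 4) in WT. After stimulation the order was different, with Zap70 in the second place behind Cd3g, with overlapping ranges, at 951.1 TPM in WT and 1093 TPM in CtslΔTEC mice (means of 2), and Cd247 moved down to the ninth, above Themis. The plot of levels by library shows these shifts.

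**Figure D1:**
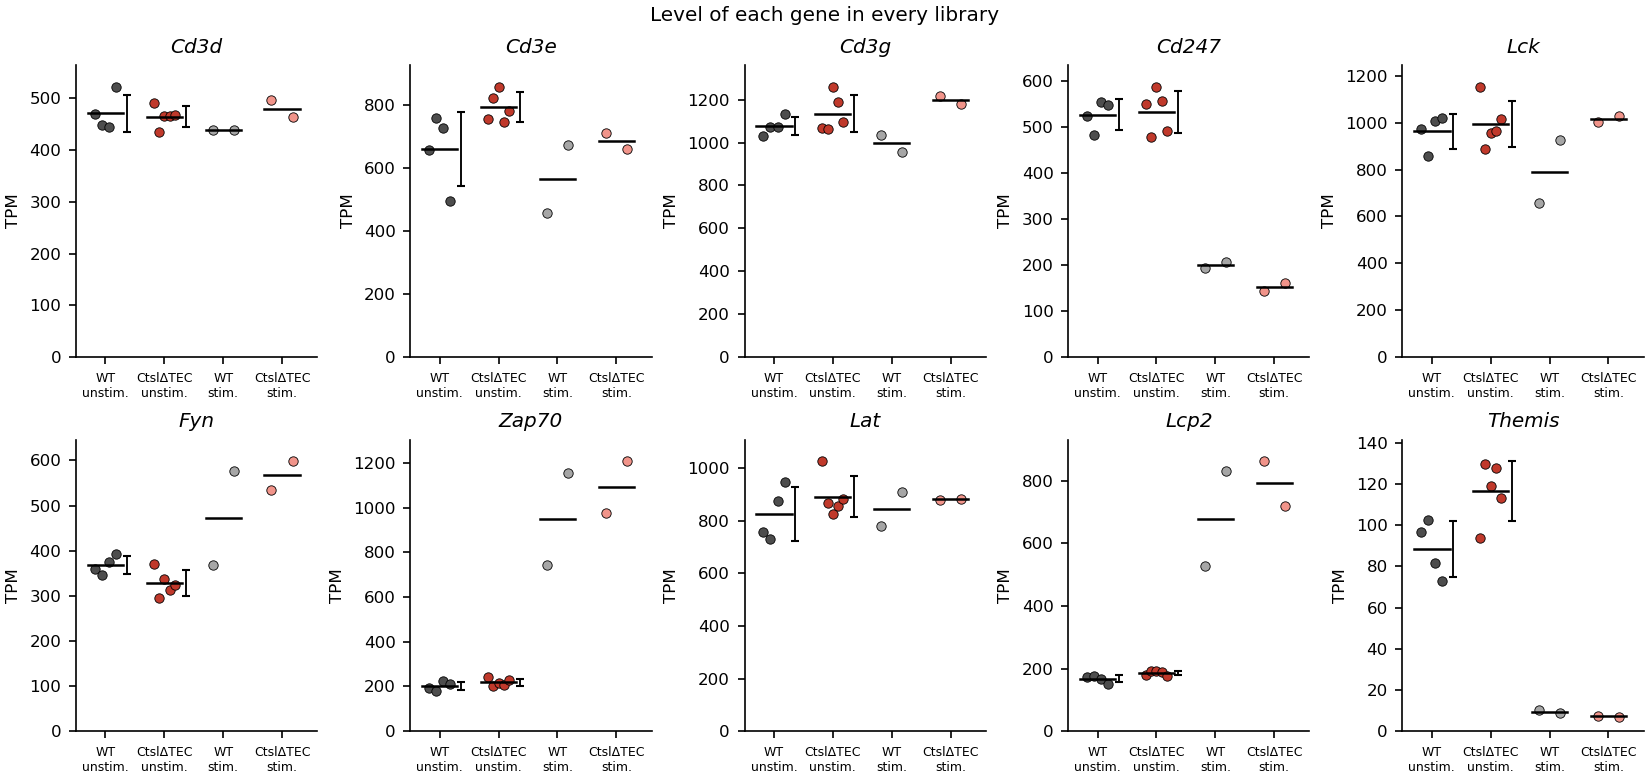
Level of each gene in TPM on a linear axis from 0, by genotype and stimulation. Each point is 1 library (1 mouse), the line is the mean, and the bar beside groups of 4 or 5 is the SD. Zap70 and Lcp2 lie higher in all 4 stimulated libraries than in any unstimulated library, and Cd247 and Themis lie lower.

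The response to 4 h of stimulation was examined within each genotype. In WT cells 3 of the 10 genes rose (Zap70, Lcp2 and Fyn), 2 fell (Cd247 and Themis) and 5 did not pass the threshold, by edgeR's quasi-likelihood test at an adjusted p under 0.1. Of all 14241 genes tested, 32.8% rose and 34.7% fell in the same comparison. In CtslΔTEC cells 5 of the 10 rose (the same 3, Cd3d and Cd3g) and 2 fell (Cd247 and Themis), against 32.8% and 38.2% of all genes. The median absolute log2 fold change of the 10 genes was 0.33 in WT and 0.60 in CtslΔTEC cells, beside 0.77 and 0.85 for all genes tested. The labels describe a culture for the stimulated cells only, and the files of these cells carry a later date than all others, so antigen, culture and date cannot be told apart.

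The 3 CD3 chains had the flattest profiles beside Lck and Lat, with log2 fold changes of at most 0.23. Cd3g, the gamma chain, stood at 1033 to 1132 TPM in unstimulated and 958.0 and 1037 TPM in stimulated WT cells, a log2 fold change of -0.01 ± 0.09 (SE; adjusted p = 0.924). Cd3d, the delta chain, had a log2 fold change of 0.02 ± 0.10 (adjusted p = 0.891) and Cd3e, the epsilon chain, one of -0.10 ± 0.14 (adjusted p = 0.527) in WT cells. In CtslΔTEC cells Cd3g rose by 0.23 ± 0.09 (adjusted p = 0.0333) and Cd3d by 0.22 ± 0.09 (adjusted p = 0.0501) on the log2 scale, but both estimates were 0.08 and neither passed when libraries were scaled by their totals alone, a scaling that moved the median of all genes by -0.14. Of 10 alternative fits Cd3d passed in 4 and Cd3g in 5, and both were also lost with no low-count filter, on log2 TPM, with a transcript length offset and with the Y-linked covariate. Either call was also lost without stimulated CtslΔTEC mouse 6 (adjusted p = 0.194 for Cd3g and 0.288 for Cd3d) or mouse 7 (0.133 and 0.138). Cd3e had a log2 fold change of -0.04 ± 0.13 there (adjusted p = 0.817).

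Cd247, which encodes the zeta chain with its repeated ITAMs, fell in both genotypes. In unstimulated WT mice 1 to 4 it measured 523.6, 481.6, 555.3 and 547.5 TPM, and in stimulated WT mice 5 and 6 it measured 193.7 and 205.6 TPM. In unstimulated CtslΔTEC mice 1 to 5 the levels were 551.0, 477.8, 587.3, 556.6 and 491.3 TPM, against 142.4 and 160.1 TPM in stimulated mice 6 and 7. Stimulated and unstimulated libraries did not overlap in either genotype. Cd247 fell 2.55-fold in WT cells (log2 fold change -1.35 ± 0.10, adjusted p = 2.72e-09) and 3.19-fold in CtslΔTEC cells (-1.67 ± 0.10, adjusted p = 1.28e-10). Set against the mean of the 3 CD3 chains in the same library, Cd247 made up 61.7% to 76.4% in unstimulated libraries, 29.8% and 30.1% in stimulated WT and 17.6% and 20.8% in stimulated CtslΔTEC libraries.

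Zap70, the kinase recruited to phosphorylated ITAMs, had the steepest rise of the group. Unstimulated WT mice 1 to 4 had 194.2, 181.5, 223.6 and 211.6 TPM and stimulated WT mice 5 and 6 had 744.9 and 1157 TPM. Unstimulated CtslΔTEC mice 1 to 5 had 240.2, 200.1, 216.8, 206.2 and 227.0 TPM and stimulated mice 6 and 7 had 978.0 and 1208 TPM. Every stimulated library was above every unstimulated library. Zap70 rose 4.71-fold in WT (log2 fold change 2.24 ± 0.13, adjusted p = 2.51e-10) and 5.02-fold in CtslΔTEC cells (2.33 ± 0.12, adjusted p = 4.75e-11).

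Lcp2, which encodes the adaptor SLP-76, rose by nearly as much. It measured 174.0, 175.6, 166.4 and 151.7 TPM in unstimulated WT mice 1 to 4 and 526.2 and 831.4 TPM in stimulated WT mice 5 and 6. In CtslΔTEC mice it measured 179.8, 191.1, 191.7, 189.7 and 177.2 TPM before (mice 1 to 5) and 862.5 and 720.4 TPM after stimulation (mice 6 and 7). The rise was 4.49-fold in WT (log2 fold change 2.17 ± 0.11, adjusted p = 3.61e-11) and 4.69-fold in CtslΔTEC cells (2.23 ± 0.10, adjusted p = 7.80e-12). Lat, the membrane adaptor with which SLP-76 pairs, did not pass in either genotype (log2 fold change 0.14 ± 0.13, adjusted p = 0.375 in WT and 0.15 ± 0.13, adjusted p = 0.327 in CtslΔTEC). Its levels ran from 728.8 to 1026 TPM in unstimulated and from 778.3 to 910.2 TPM in stimulated libraries, which overlap.

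The Src family kinases Lck and Fyn differed in their response. Lck stood at 856.4 to 1153 TPM in unstimulated libraries, at 657.9 and 924.9 TPM in stimulated WT and at 1005 and 1029 TPM in stimulated CtslΔTEC libraries, and passed in neither genotype (log2 fold change -0.16 ± 0.12, adjusted p = 0.257 and 0.14 ± 0.11, adjusted p = 0.305). Scaled by library totals alone, Lck fell in WT cells by 0.25 on the log2 scale (adjusted p = 0.0796), and it also passed with upper-quartile factors (-0.24, adjusted p = 0.0926) and on log2 TPM with limma (-0.30, adjusted p = 0.0747). After thinning, Lck rose in CtslΔTEC cells by 0.27 (adjusted p = 0.0452), so no direction is given for Lck. In stimulated WT cells the low value was that of stimulated WT mouse 5, the shallowest library. Fyn measured 360.3, 346.9, 374.8 and 393.5 TPM in unstimulated WT mice 1 to 4 and 367.3 and 576.4 TPM in stimulated mice 5 and 6, so that the groups overlapped. In CtslΔTEC mice the unstimulated levels of 370.6, 296.1, 337.6, 313.0 and 322.8 TPM (mice 1 to 5) all lay under the stimulated levels of 535.4 and 598.4 TPM (mice 6 and 7). Fyn rose 1.42-fold in WT (log2 fold change 0.51 ± 0.11, adjusted p = 0.000587) and 1.95-fold in CtslΔTEC cells (0.96 ± 0.10, adjusted p = 2.57e-07). Without stimulated WT mouse 6 the Fyn log2 fold change in WT cells was 0.27 (adjusted p = 0.0512).

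Themis had the largest fold change of the 10 genes. In WT cells it went from 96.8, 102.7, 81.6 and 72.8 TPM (mice 1 to 4) to 10.1 and 8.90 TPM (mice 5 and 6), and in CtslΔTEC cells from 93.6, 129.5, 119.2, 127.8 and 113.2 TPM (mice 1 to 5) to 7.50 and 7.07 TPM (mice 6 and 7). The lowest unstimulated library was well above the highest stimulated library. Themis fell 9.23-fold in WT (log2 fold change -3.21 ± 0.20, adjusted p = 1.87e-09) and 17.2-fold in CtslΔTEC cells (-4.11 ± 0.21, adjusted p = 1.20e-10). The stimulated values rest on 247 to 713 estimated counts per library, against 7442 to 15473 in unstimulated cells. Because these are bulk samples, fewer cells with a transcript and less of it per cell cannot be told apart, here or for the other genes.

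The test of whether the response differed between genotypes passed for 1 of the 10 genes. Themis fell by 0.90 ± 0.25 more in CtslΔTEC than in WT cells on the log2 scale (adjusted p = 0.0622), and 1.18% of all genes passed with a response higher and 4.96% with a response lower in CtslΔTEC cells. Themis kept an adjusted p between 0.0191 and 0.0893 in all 10 alternative fits that used every library at the same threshold. It no longer passed when any of 7 single libraries was left out, namely unstimulated CtslΔTEC mouse 2, 3 or 4, unstimulated WT mouse 3, stimulated CtslΔTEC mouse 6 or 7, or stimulated WT mouse 5, with log2 differences of -0.66 to -0.91 and adjusted p-values of 0.101 to 0.297. Fyn had a difference of 0.46 ± 0.15 (adjusted p = 0.119) and Cd247 of -0.32 ± 0.13 (adjusted p = 0.201). Zap70 and Lcp2 had differences of 0.09 ± 0.19 (adjusted p = 0.888) and 0.06 ± 0.16 (adjusted p = 0.912).

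**Figure D2:**
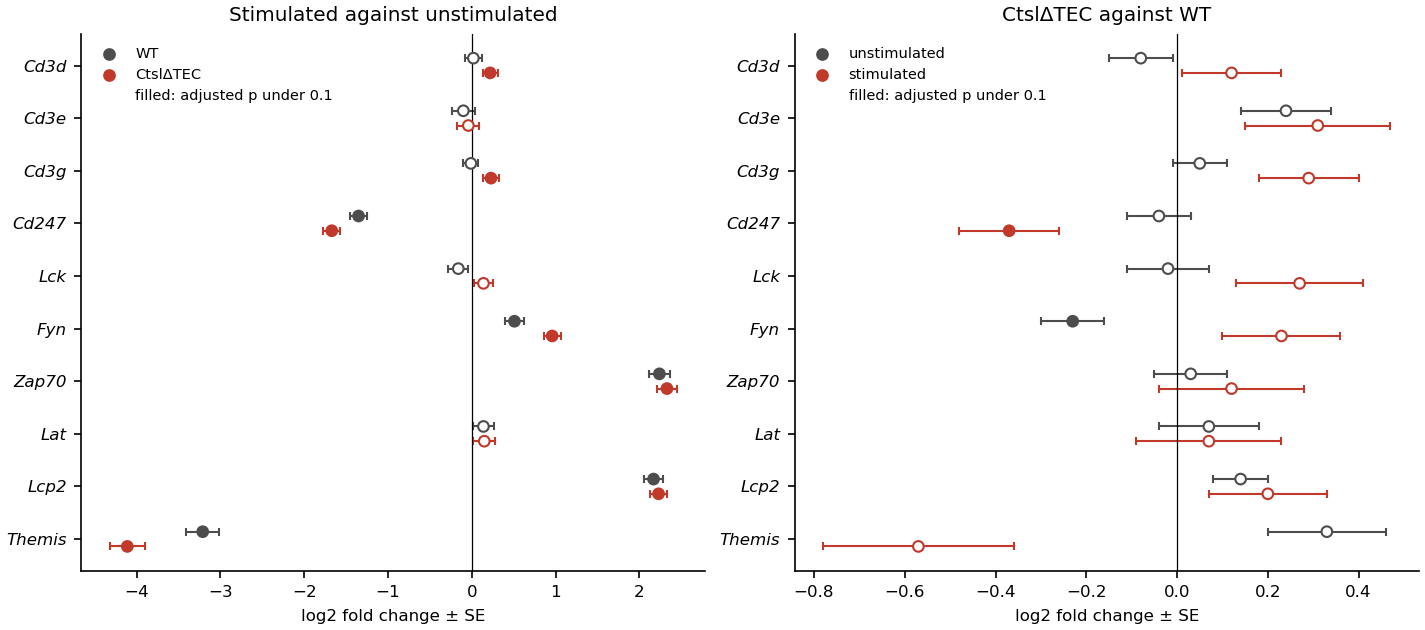
Log2 fold change with its SE (horizontal axes) for each gene. Left, stimulated against unstimulated cells in WT (grey) and CtslΔTEC (red) mice. Right, CtslΔTEC against WT in unstimulated (grey) and stimulated (red) cells. Filled symbols have an adjusted p under 0.1. The 2 panels have different scales: responses reach -4.11 for Themis, whereas no genotype difference exceeds 0.57 in size.

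Between the genotypes, differences were small. In unstimulated cells Fyn was 1.17-fold lower in CtslΔTEC than in WT mice (log2 fold change -0.23 ± 0.07, adjusted p = 0.0480) and no other gene of the 10 passed. Among all 13152 genes tested 6.59% were higher and 8.49% were lower in CtslΔTEC mice (867 and 1116 genes, or 1172 and 892 when libraries were scaled by their totals alone). On the scale normalised by TMM factors the 5 CtslΔTEC values of Fyn all lay under the 4 WT values (exact two-sided permutation p = 0.0159, the smallest that 5 against 4 mice can give), whereas in TPM the 2 ranges overlapped (296.1 to 370.6 against 346.9 to 393.5). Among the 6 libraries with the second file date Fyn differed by -0.24 (adjusted p = 0.0425). With the level of Y-linked transcripts in the fit, which separates all but 1 of the 9 mice by genotype, the difference of -0.23 no longer passed (adjusted p = 0.475). Nor did Fyn pass with libraries scaled by their totals alone (-0.18, adjusted p = 0.113), on log2 TPM with limma (-0.17, adjusted p = 0.239) or in the 4-group model (adjusted p = 0.117). It also did not pass without CtslΔTEC mouse 2, 4 or 5 or WT mouse 3 or 4, where Fyn differed by -0.19 to -0.22 with adjusted p-values of 0.101 to 0.117.

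Themis, Cd3e and Lcp2 were higher on average in unstimulated CtslΔTEC mice without passing the threshold. Themis had a mean of 116.6 TPM ± 14.5 (SD, n = 5) against 88.5 ± 13.7 (SD, n = 4), with overlapping ranges (log2 fold change 0.33 ± 0.13, adjusted p = 0.136). Cd3e had a mean of 792.5 TPM ± 47.3 against 659.5 ± 117.1 (log2 fold change 0.24 ± 0.10, adjusted p = 0.147). It was lowest, at 495.7 TPM, in WT mouse 4, the only one of these WT mice with the first file date. Lcp2 had 177.2 to 191.7 TPM in CtslΔTEC against 151.7 to 175.6 TPM in WT mice, ranges that do not overlap in TPM but do on the TMM scale (log2 fold change 0.14 ± 0.06, adjusted p = 0.190). Themis passed with library totals alone (0.37, adjusted p = 0.0845) and on log2 TPM with limma (0.40, adjusted p = 0.0721). With file date as a factor Themis passed (0.38, adjusted p = 0.0174) and so did Cd3e, and Themis passed within the second date (0.36, adjusted p = 0.0479). The DP markers given above were higher in the same 5 libraries, and their part in the Themis difference was not tested. The other 6 genes had log2 differences between -0.08 and 0.07.

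In stimulated cells Cd247 was 1.29-fold lower in CtslΔTEC than in WT mice (log2 fold change -0.37 ± 0.11, adjusted p = 0.0373), with 142.4 and 160.1 against 193.7 and 205.6 TPM. Of the 14241 genes tested 2.81% were higher and 10.6% were lower. Over 11 alternative fits the log2 fold change of Cd247 ran from -0.44 to -0.30, and with 1 library left out from -0.46 to -0.29. The Cd247 call rests on the spread shared by the 4 groups. It was lost when only the 4 stimulated libraries were fitted (adjusted p = 0.177), after thinning all libraries to the smallest total (0.124), without CtslΔTEC mouse 6 (0.269) and without WT mouse 5 (0.150). Cd3g had 1219 and 1182 TPM against 1037 and 958.0 TPM (log2 fold change 0.29 ± 0.11, adjusted p = 0.118), and passed in 4 of 11 alternative fits, with upper-quartile factors (0.0631), the DESeq2 test (0.0373), at least 10 counts in every library (0.0415) and the Y-linked covariate (0.0960). Themis had 7.50 and 7.07 against 10.1 and 8.90 TPM (-0.57 ± 0.21, adjusted p = 0.115) and passed in 1 of 11, the DESeq2 test (0.0689). Lck, Fyn, Zap70, Lcp2 and Cd3e were all lowest in WT mouse 5, and their log2 differences of 0.12 to 0.31 did not pass with all libraries. With 1 library left out these ran from 0.10 to 0.53 for Cd3e, 0.04 to 0.44 for Fyn and 0.16 to 0.38 for Lck. They ran from -0.08 to 0.35 for Zap70 and reached 0.41 for Lcp2. The DP markers summed to 115.8 and 118.2 TPM in these CtslΔTEC libraries against 71.5 and 78.4 TPM in WT, and their part in the differences was not tested. With 2 mice against 2 an exact permutation test cannot go under 0.333.

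Lck is transcribed from 2 promoters, and its transcripts can be split by where they start. The distal promoter is the main one of mature T cells and the proximal promoter is used in immature thymocytes. In the annotation 1 coding transcript starts at the distal site and 3 transcripts start within 200 bases of the proximal site. The bases upstream of the 2 sites, from RefSeq on GRCm38.p6 and the minus strand, are chr4:129573642-129573891 (250 bases) and chr4:129558392-129558622 (231 bases, ending at the first annotated exon), and are shown because the data separate the transcripts that begin there. Capitals mark matches on either strand to GGAAA (the core bound by NFAT) or to the E-box CANNTG.
Lck distal: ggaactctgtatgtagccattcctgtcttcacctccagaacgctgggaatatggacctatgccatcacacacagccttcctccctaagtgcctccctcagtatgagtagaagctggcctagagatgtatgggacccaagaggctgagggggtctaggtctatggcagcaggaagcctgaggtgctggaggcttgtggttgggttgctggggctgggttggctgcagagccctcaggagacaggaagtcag
Lck proximal: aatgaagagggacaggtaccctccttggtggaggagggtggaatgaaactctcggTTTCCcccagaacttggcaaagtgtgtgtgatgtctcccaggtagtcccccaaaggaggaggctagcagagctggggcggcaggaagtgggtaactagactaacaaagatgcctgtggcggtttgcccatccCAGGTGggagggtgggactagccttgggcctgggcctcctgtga

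The distal stretch holds neither motif and the proximal stretch holds 1 of each. The letters GGAAA occur in 55.6% and CANNTG in 66.2% of the 250-base stretches upstream of 32851 RefSeq starts. Transcripts from the proximal site made up 19.7%, 18.6%, 20.4% and 20.0% of the TPM of proximal and distal transcripts together in unstimulated WT mice 1 to 4. In unstimulated CtslΔTEC mice 1 to 5 the proximal share was 16.7%, 15.8%, 17.8%, 16.4% and 14.5%, so that every CtslΔTEC mouse lay under every WT mouse. In stimulated cells the proximal share was 6.71% and 12.1% in WT mice 5 and 6 and 7.76% and 7.89% in CtslΔTEC mice 6 and 7, under all unstimulated mice. The distal transcripts stood at 514.5 to 675.5 TPM before and 490.2 to 655.3 TPM after stimulation, whereas the proximal transcripts went from between 104.0 and 163.4 TPM to between 35.3 and 81.9 TPM. This split was chosen after the values were seen and is given without a test. How often shares of other genes separate the genotypes in this way was not computed. The DP markers summed to 352.1 to 447.2 TPM in the same unstimulated CtslΔTEC libraries against 167.5 to 202.4 TPM in WT. How the proximal share relates to the maturity of the cells was not tested. The share of the distal transcript in all Lck transcripts, which include retained-intron forms, was 61.3% ± 2.06 (SD, n = 5) in CtslΔTEC and 60.0% ± 3.36 (SD, n = 4) in WT mice (exact permutation p = 0.540, adjusted p = 0.863).

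Fyn has a pair of alternative coding exons of which a full-length transcript carries 1. The form with the shorter exon is the known thymic form, and the form with the longer exon is the one known from brain. In the annotation 1 transcript holds the longer exon (165 bases, chr10:39529437-39529601) and 4 hold the shorter one (156 bases, chr10:39529919-39530074), both on the plus strand of GRCm38. They are shown from the GENCODE M21 transcripts because they are what sets the forms apart. Capitals mark bases that differ or have no partner in an alignment of the 2 exons, in which 87 bases were the same.
Fyn longer exon: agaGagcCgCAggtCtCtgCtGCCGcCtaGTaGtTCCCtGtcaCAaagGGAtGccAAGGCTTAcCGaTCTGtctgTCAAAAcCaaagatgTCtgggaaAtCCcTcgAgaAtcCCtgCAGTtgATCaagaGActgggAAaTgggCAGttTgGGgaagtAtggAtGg
Fyn shorter exon: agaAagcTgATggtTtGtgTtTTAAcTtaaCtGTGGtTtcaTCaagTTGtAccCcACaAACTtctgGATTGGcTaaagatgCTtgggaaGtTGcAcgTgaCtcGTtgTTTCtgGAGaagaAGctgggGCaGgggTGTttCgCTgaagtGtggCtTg

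The transcript with the longer exon made up 9.96% to 15.8% of the Fyn transcripts that hold either exon in unstimulated CtslΔTEC mice and 10.9% to 14.7% in WT mice. After stimulation the share was 12.9% and 14.8% in CtslΔTEC and 8.83% and 14.8% in WT mice. The shorter-exon transcripts thus held most of Fyn in every library, at 187.8 to 249.1 TPM before and 279.0 to 384.3 TPM after stimulation. Fyn-206, a coding model that holds neither exon, took 15.5% to 22.4% of all Fyn TPM.

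Transcripts of Zap70, Cd247, Themis, Lcp2 and Lck took shares that did not overlap between stimulated and unstimulated libraries. How many of all genes have such a transcript was not computed. Zap70-204, annotated as a retained-intron transcript, took 12.3% to 17.4% of Zap70 TPM in unstimulated libraries, 20.2% and 23.3% in stimulated WT and 28.0% and 28.2% in stimulated CtslΔTEC libraries. Cd247-207, annotated as a processed transcript without a coding frame, took 3.86% to 6.30% of Cd247 TPM before and 14.5% to 16.6% after stimulation, while the main coding transcript went from 78.5% to 86.4% down to 61.3% to 65.1%. The main Themis transcript went from 74.3% to 80.8% of Themis TPM down to 58.1% and 71.5% in WT and 49.0% and 51.5% in CtslΔTEC libraries. These stimulated Themis shares rest on 247 to 713 estimated counts of the gene per library. The second most abundant Lcp2 transcript, also coding, took 28.7% to 36.7% of Lcp2 TPM before and 25.8% to 27.5% after stimulation. Lck-201, which starts at the proximal site, took 9.17% to 14.3% of Lck TPM before and 4.49% to 7.46% after stimulation. These shares were singled out after their values were seen and are given without a test. Over all genes, retained-intron transcripts took 5.134% to 6.594% of the counts in unstimulated libraries and, after stimulation, 5.995% and 7.627% in WT and 7.938% and 8.548% in CtslΔTEC libraries. The part of this in the Zap70 share was not tested. kallisto divides reads between overlapping transcripts by an estimate whose error the files do not give.

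**Figure D3:**
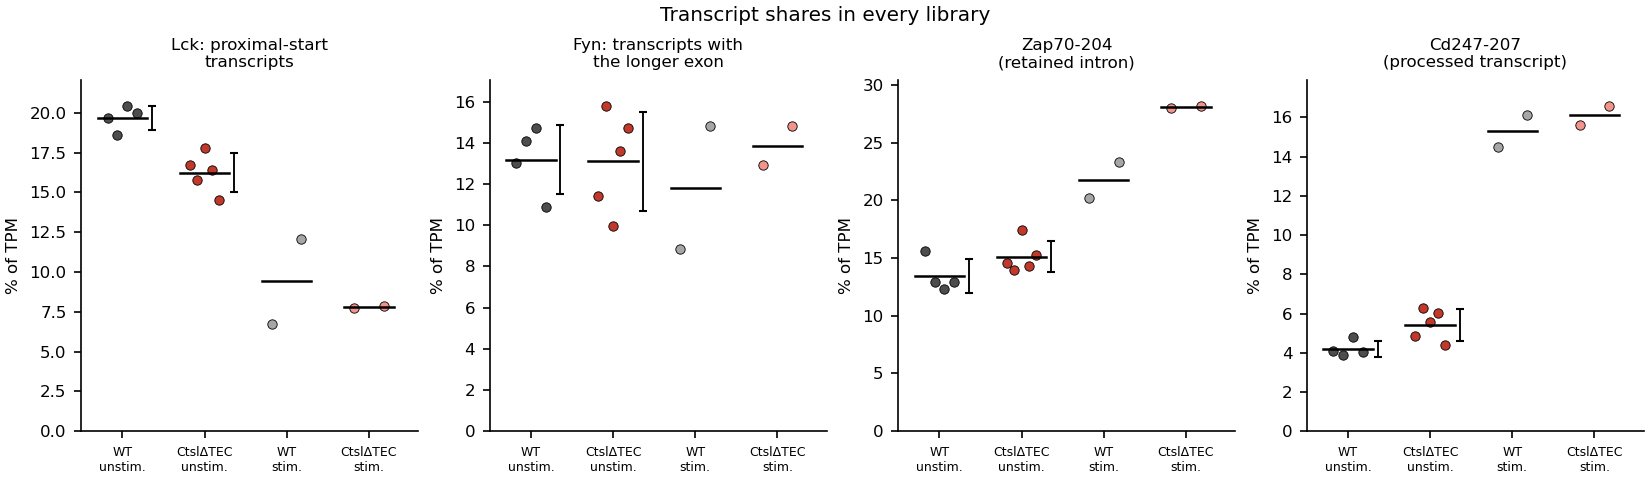
Share of TPM in each library, in percent on axes from 0, by genotype and stimulation. From the left: proximal-start transcripts among proximal- and distal-start transcripts of Lck, longer-exon transcripts among those of Fyn with either exon, Zap70-204 in all Zap70, and Cd247-207 in all Cd247. Points are libraries, lines means and bars SD for groups of 4 or 5. The Lck share is lower, and the Zap70-204 and Cd247-207 shares are higher, in all 4 stimulated libraries than in any unstimulated library.

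In unstimulated cells the share of the leading transcript was tested between genotypes for the 8 genes with a second transcript of at least 5% of TPM, and none passed after adjustment over the 8 (lowest adjusted p = 0.254, exact permutation test). With 8 tests and a smallest possible p of 0.0159, a single gene could not have passed alone. The leading Cd247 transcript differed most, with 80.5% ± 1.61 (SD, n = 5) in CtslΔTEC against 83.8% ± 1.91 (SD, n = 4) in WT mice (exact permutation p = 0.0317), and was the only one of the 8 under an unadjusted 0.05. As a share of estimated counts in place of TPM, 2 of the 8 passed, those of Cd247 (CtslΔTEC minus WT, -2.64 percentage points) and Lck (2.52 points), each at an adjusted exact permutation p of 0.0635.

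The upstream stretches of Zap70, Lcp2 and Themis are shown because these genes had the 3 largest fold changes on stimulation. They come from RefSeq on the plus strand of GRCm38.p6 and end before the first annotated exon of each gene, at chr1:36761548-36761797 for Zap70 (250 bases), chr11:34046678-34046919 for Lcp2 (242 bases) and chr10:28668110-28668359 for Themis (250 bases). Capitals again mark GGAAA and CANNTG on either strand.
Zap70: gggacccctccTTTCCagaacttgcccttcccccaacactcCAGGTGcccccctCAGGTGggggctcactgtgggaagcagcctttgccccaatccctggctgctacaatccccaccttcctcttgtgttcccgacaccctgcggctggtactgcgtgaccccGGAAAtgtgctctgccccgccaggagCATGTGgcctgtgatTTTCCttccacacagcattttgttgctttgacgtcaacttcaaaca
Lcp2: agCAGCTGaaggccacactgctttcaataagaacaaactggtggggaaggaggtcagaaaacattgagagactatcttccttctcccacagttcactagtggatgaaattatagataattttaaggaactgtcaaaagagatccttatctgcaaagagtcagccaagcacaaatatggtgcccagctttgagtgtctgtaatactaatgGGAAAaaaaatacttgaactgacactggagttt
Themis: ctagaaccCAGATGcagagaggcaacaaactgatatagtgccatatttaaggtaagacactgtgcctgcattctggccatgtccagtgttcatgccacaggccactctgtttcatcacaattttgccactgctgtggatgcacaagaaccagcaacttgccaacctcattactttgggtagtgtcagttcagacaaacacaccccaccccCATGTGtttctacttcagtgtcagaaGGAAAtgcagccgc

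Zap70 holds 3 matches to GGAAA and 3 to CANNTG, Lcp2 holds 1 and 1, and Themis holds 1 and 2. None of these stretches, nor those of Lck, holds the EGR motif GCGNGGGCG (present in 4.70% of all upstream stretches) or the AP-1 motif TGANTCA (6.75%). A match is a run of letters and not a bound site.

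Of 22 genes downstream of the proximal kinases, listed with earlier results of these data known, stimulation raised 4 and lowered 18 in WT cells and raised 4 and lowered 17 in CtslΔTEC cells, and their median log2 fold change was -1.09 in both genotypes (all genes tested, 0.01 and -0.06). Of all genes, 32.8% rose and 34.7% fell in WT and 32.8% and 38.2% in CtslΔTEC cells. Tespa1, Malt1 and Bcl10 were among the 4 that rose in each genotype. Malt1, a protease on the path to NF-κB, rose by 1.52 ± 0.12 in WT (adjusted p = 1.23e-08) and 2.06 ± 0.11 in CtslΔTEC cells (adjusted p = 9.00e-11), and Bcl10, its adaptor, rose by 1.11 ± 0.11 and 1.19 ± 0.11. Tespa1, a thymocyte protein of TCR signalling, rose from 94.3 to 177.9 TPM in unstimulated to 248.1 and 410.4 TPM in WT and 545.4 and 594.0 TPM in CtslΔTEC libraries. The largest falls were those of Grap2, the adaptor that links SLP-76 to LAT (-2.77 ± 0.14 in WT, adjusted p = 5.60e-11), of the PI3-kinase genes Pik3r1 (-2.67 ± 0.18) and Pik3cd (-2.37 ± 0.14), and in CtslΔTEC cells of Trat1, a TCR-associated adaptor (-4.07 ± 0.33, adjusted p = 2.22e-07). Without the shallow WT mouse 5 the counts in WT cells were 4 and 17.

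Of 18 regulators listed as restraining TCR signalling, 8 rose and 8 fell in WT cells (32.8% and 34.7% of all genes) and 7 rose and 10 fell in CtslΔTEC cells (32.8% and 38.2% of all genes). Among those that rose were the ubiquitin ligase gene Cblb (2.06 ± 0.12 in WT and 1.88 ± 0.12 in CtslΔTEC), Ubash3b (2.03 ± 0.17 and 2.24 ± 0.16) and the phosphatase gene Ptpn22 (1.71 ± 0.11 and 1.71 ± 0.10). Among those that fell were Sit1 (-2.40 ± 0.16 and -2.31 ± 0.15), Sla2 (-2.03 ± 0.12 and -2.71 ± 0.12) and Unc119 (-1.53 ± 0.29 and -1.46 ± 0.27), all with adjusted p-values of at most 0.000206. Unc119, unlike the name of the list, encodes a protein known to activate Lck and Fyn. Nor can that name be taken as the role of every other gene counted. Among these is Ptprc (CD45), which rose by 0.97 ± 0.10 in WT and 1.39 ± 0.10 in CtslΔTEC cells. The plot of list responses shows the 2 genotypes side by side. Without WT mouse 5 the counts in WT cells were 6 and 8.

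**Figure D4:**
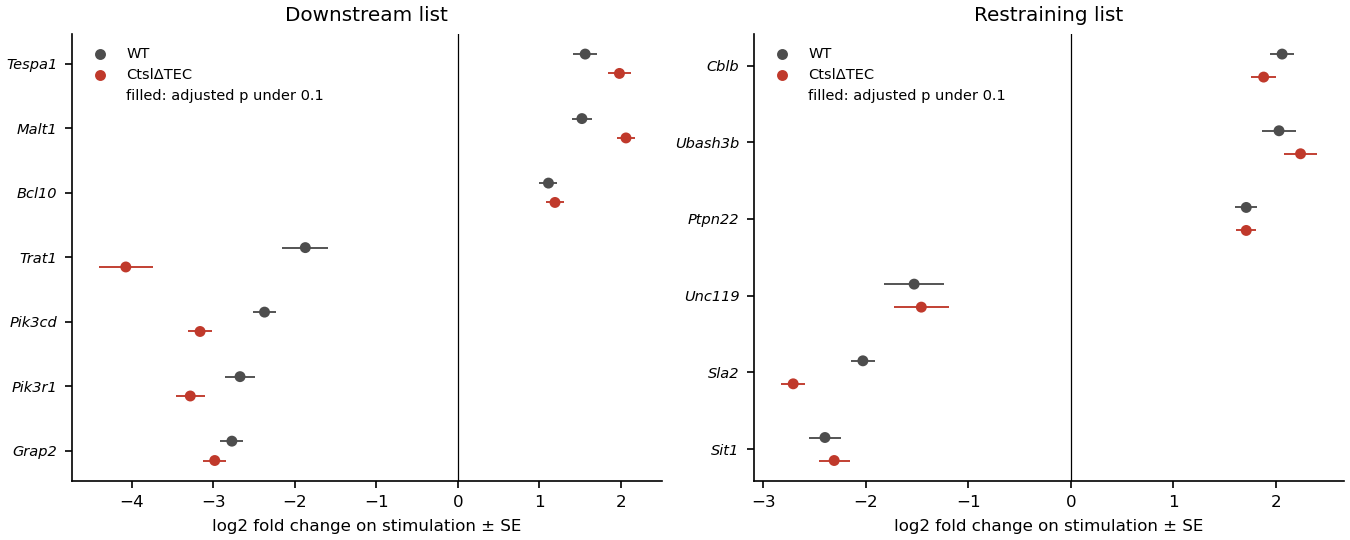
Log2 fold change on stimulation with its SE (horizontal axes) of the 7 downstream genes (left) and 6 restraining-list genes (right) named for the responses, in WT (grey) and CtslΔTEC (red) cells, ordered by the WT value. Filled symbols have an adjusted p under 0.1. Trat1 lies farther from 0 in CtslΔTEC (-4.07) than in WT (-1.87) cells, and the restraining-list genes lie on either side of 0.

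The response differed by genotype for 5 of the 22 downstream genes (1 higher and 4 lower in CtslΔTEC) and 3 of the 18 restraining-list genes (1 higher and 2 lower), where 1.18% of all genes were higher and 4.96% lower. Trat1 had a log2 difference of -2.21 ± 0.40 (adjusted p = 0.0130), Pik3cd of -0.79 ± 0.18 (0.0216) and Was, the actin regulator, of -0.55 ± 0.12 (0.0192), and Rasgrp1, the Ras activator, of 0.54 ± 0.16 (0.0761). The Rasgrp1 call held in 5 of 13 fits with 1 library left out, with adjusted p-values up to 0.288. Ubash3a, which dampens TCR signals, fell by 1.41 ± 0.10 on the log2 scale in CtslΔTEC cells, had a log2 fold change of -0.18 ± 0.09 in WT cells (adjusted p = 0.102), and the difference of -1.22 ± 0.13 passed (adjusted p = 0.000272). Without stimulated WT mouse 5, 2 downstream genes and 1 restraining gene passed this test. The levels of Ubash3a were 62.4 to 94.2 TPM in unstimulated, 53.5 and 59.5 TPM in stimulated WT and 27.0 and 27.7 TPM in stimulated CtslΔTEC libraries. In unstimulated cells 2 downstream genes were higher in CtslΔTEC mice (Tec, 0.64 ± 0.16, and Tespa1, 0.38 ± 0.09) and 4 were lower, of which Malt1 (-0.40 ± 0.08) and Rasgrp1 (-0.38 ± 0.09) differed most. Of the restraining genes 3 were higher (Ptpn22, 0.39 ± 0.08, Cbl and Lax1) and 2 were lower (Csk and Dusp22), where 6.59% of all genes were higher and 8.49% lower. With 1 mouse left out, Lax1 passed in 4, Csk in 3 and Dusp22 in 2 of 9 fits. In stimulated cells 1 downstream gene was higher (Tespa1, 0.80 ± 0.17) and 7 were lower in CtslΔTEC mice, and 2 restraining-list genes were higher (Ptprc and Ptpn22) and 5 lower, where 2.81% of all genes were higher and 10.6% lower. Without WT mouse 5 these counts were 0 and 4, and 0 and 3. With Y-linked transcripts in the fit, 0 of these downstream and 0 of these restraining genes passed in unstimulated cells by edgeR. Over 14 alternative fits, that one among them, Malt1 differed by -0.43 to -0.31 and Rasgrp1 by -0.41 to -0.30 on the log2 scale. Tec differed there by 0.58 to 0.87, Tespa1 by 0.33 to 0.48, Ptpn22 by 0.37 to 0.45 and Dusp22 by -0.30 to -0.15.

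Close relatives of the 10 genes were low. Of 13 such genes 8 passed the filter on low counts in unstimulated cells and 9 over all libraries, and the highest level in any library was 8.84 TPM, for Lat2, and Syk, the relative of Zap70, did not exceed 0.384 TPM. Lyn, a Src family kinase of B and myeloid cells, did not exceed 0.376 TPM. Themis2, the B cell relative of Themis, reached 0.221 TPM. Src stood at 0.172 to 0.968 TPM in unstimulated and 1.71 to 6.69 TPM in stimulated libraries. On stimulation 2 relatives rose and 3 fell in WT cells (32.8% and 34.7% of all genes). In CtslΔTEC cells 2 rose and 4 fell (32.8% and 38.2%). In CtslΔTEC mice 2 were higher in unstimulated cells (6.59% of all genes) and 1 in stimulated cells (2.81%). None of these reached the mean level set for naming a relative in a comparison.

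The gene whose profile over the 13 libraries was most like that of each member was found by the root mean square difference of log2 CPM (counts relative to library size) after centring each gene on its mean, among 14240 genes. For Zap70 it was 2410002F23Rik (difference 0.10, where Zap70 itself deviated by 1.04), for Lcp2 the inhibitor of apoptosis gene Birc3 (0.10 of 0.99), for Cd247 the ubiquitin ligase gene Hectd3 (0.07 of 0.73) and for Themis Lypd6b (0.10 of 1.73). For Fyn it was Vasp, an actin regulator (0.09 of 0.35). Lypd6b, like Themis, went from 32.4 to 55.5 TPM before to 2.89 to 3.67 TPM after stimulation. Cd3d, Cd3e, Cd3g, Lck and Lat themselves deviated by 0.10 to 0.21, and the genes nearest to them were Rpl10, Sema4d, Selenof, Gps2 and 2210016L21Rik (differences of 0.06 to 0.08). Among the members themselves the nearest pair was Cd3d and Cd3g (0.09), and Zap70 and Lcp2 differed by 0.18.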

How the data were processed

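RNA from sorted M2 CD4SP thymocytes of 13 mice was measured, 1 library per mouse. Abundances made by the authors with kallisto (version 0.48 in the submitters' processing notes) on Ensembl 106 transcripts were deposited as estimated counts, which are not normalized, as TPM and as lengths. The labels name polyadenylated RNA, the study's methods rRNA depletion. The study's methods name default parameters and no strand option.

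Here 116397 of 117497 transcripts were paired with genes through GENCODE M21, which is older. The rest held at most 0.461% of counts. Estimated counts were summed to genes and rounded. Libraries held 8085463 to 39127833, and 3 of the 4 stimulated ones were shallower than every unstimulated one. Genes kept by filterByExpr were fitted by edgeR 4.0.16 in R 4.3.3 (quasi-likelihood F test, TMM factors, Benjamini-Hochberg over all genes, threshold 0.1). The unstimulated comparison used 9 libraries and the others a 4-group model of all 13. SEs came from the fold change and F. Permutation tests were exact and two-sided (126 splits) on log2 CPM, where the prior count was 2, or on shares, in SciPy 1.17.1. Alternatives used DESeq2 1.42.0, limma 3.58.1 on log2 TPM (pseudocount 1), other factors, filters, dates, thinning and leaving out each mouse. Fits were tested on simulated data. Figures and tables were made in Python 3.11.15.

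The members and lists were chosen with earlier results of these data known. List genes named were, per list, comparison and direction, up to 3 past the threshold with the largest fold change and a mean log2 CPM of at least 1. The Ubash3a responses within each genotype were chosen after their values were seen. Some list genes are not reported here. Mice carry the numbers of their titles, which differ from those in the file names for 5 of the 13. Nothing in the labels ties mice that share a number, and the p-values measure the spread between mice. The stretches upstream of transcript starts are from RefSeq.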

Additional observations from a re-analysis of the deposited data

Results flagged for a closer look

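Themis was flagged because its response to stimulation differed between the genotypes by a test of the difference itself, with a log2 difference of -0.90 between CtslΔTEC and WT cells. Each set of 4 or 5 unstimulated mice was also searched for a mouse far from the rest, in 36 sets of levels or leading-transcript shares. In 6 of them the gap to the nearest mouse, as a share of the whole range, exceeded Dixon's 95% critical value, and chance flags about 1 in 20. WT mouse 4 stood out for Cd3d (gap share 0.838, with 9.12 log2 CPM against 8.80 to 8.85 in the other mice), for the leading Lat transcript (0.901, with 81.5% against 74.8% to 75.5%) and for the leading Themis transcript (0.858, with 77.4% against 80.4% to 80.8%). Among the unstimulated WT mice only mouse 4 carries the first file date, so mouse and date cannot be told apart there. WT mouse 2 stood out for Lcp2 (0.905, with 8.44 log2 CPM against 8.30 to 8.31). WT mouse 1 stood out for the leading Zap70 transcript (0.882, with 79.4% against 84.3% to 85.0%), and CtslΔTEC mouse 3 for the leading Lcp2 transcript (0.714, with 58.6% against 51.1% to 53.2%).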

How the results depend on the processing

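The stimulation calls for Zap70, Lcp2, Fyn, Cd247 and Themis were kept in both genotypes in all 10 alternatives and all 13 fits that left out 1 library, and the number of members called stayed at 5 or 6 in WT and between 5 and 8 in CtslΔTEC cells. In unstimulated cells the genotype comparison called 1 member, and 0 in the 4-group model, 0 with Y-linked transcripts as a covariate, 3 with library totals alone (Cd3e, Lcp2 and Themis, without Fyn), 3 with date as a factor, 2 within the second date and 0 to 3 with 1 mouse left out. On log2 TPM the 1 call was Themis in place of Fyn. In stimulated cells it called 1, and 2 with upper-quartile factors, 3 with the DESeq2 test, 2 with at least 10 counts in every library, 2 with the Y-linked covariate, 0 in the 4 stimulated libraries alone, 0 after thinning and 0 to 5 with 1 mouse left out. The difference in response called 1, and 2 with DESeq2 size factors, 2 with the DESeq2 test, 2 with at least 10 counts, 2 with the Y-linked covariate, 0 at a threshold of 0.05 and 0 to 2 with 1 mouse left out. Leading-transcript shares called 0 of 8, and 2 as shares of estimated counts. No direction among called values was reversed, and the cause of these changes was not tested.

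The deviations of same-numbered mice had correlations of -0.157, 0.352, -0.0981 and -0.142 for numbers 1 to 4. Pairs with different numbers ran from -0.327 to 0.457. The pair numbered 2 thus deviated together and the others did not, and these values do not settle whether the numbers pair mice. The numbers are those of the titles, and the file of CtslΔTEC mouse 2 carries another number. With the replicate block 0 members passed (Fyn, -0.21, adjusted p = 0.237), and without it on the same 8 mice, a fit added after seeing the data, 0 passed (Fyn, adjusted p = 0.117). All genes called were 1125 with the block, 1560 without it on those mice and 1983 on all 9.

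Of all genes tested, 442 rather than 1983 differed in unstimulated cells with the Y-linked covariate. In stimulated cells 1908 differed, against 1178 in those 4 libraries alone, 889 after thinning, 982 without CtslΔTEC mouse 6, 1258 without mouse 7 and 998 without WT mouse 5. The response differed for 874, against 320 after thinning, 526 at a threshold of 0.05, 1037 with library totals alone and 1044 with the DESeq2 test. This number moved up or down depending on which stimulated mouse was left out. The DESeq2 test moved the median of all genes in the CtslΔTEC response by 0.13.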
